A study of Mus musculus with 9 samples.

Results

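Axon guidance ligands and receptors were examined in dorsal root ganglia of the lumbar spine, which house the cell bodies of sensory neurons, after loss of Prdm12 in adult mice. The genes were chosen by symbol. They comprised the protein-coding semaphorin, plexin, Eph, ephrin, Unc5, Slit and Robo genes, together with Nrp1, Nrp2, Ntn1, Ntn4, Dcc and Neo1, which gave 68 genes in 12 families of the 55536 genes counted. Unc5cl, whose symbol only resembles those of the netrin receptors, was left out. Mice in which Prdm12 was inducibly and conditionally knocked out (icKO, 5 libraries) were compared with mice labelled wild type (control, 4 libraries). Both groups were adult C57Bl6 mice, and the ganglia were taken 1 month after tamoxifen, which induces the knock-out; whether the controls were injected too is not spelled out. The sources used here do not give the Cre driver, the deleted exon, any Cre or floxed allele in the controls, the sex of the mice or any pooling of animals. Whether the libraries came from separate animals is not stated either, so p-values speak of the spread among libraries, part of which may be technical.

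Guidance cues steer growing axons during development, and many of their genes stay active in adult ganglia. Secreted class 3 semaphorins act through neuropilins, which bind the ligand, and plexins, which signal into the cell. Most other semaphorins are anchored in the membrane and bind plexins directly. Ephrins are cell-surface ligands of the Eph receptor tyrosine kinases. Netrins attract axons through Dcc and repel them through Unc5 receptors, and Slits repel axons through Robo receptors. Prdm12 encodes a zinc finger regulator of transcription that pain-sensing neurons need for their development.

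Of the 68 genes, 67 had enough counts to be tested, and 0 were higher and 0 lower in icKO than in control at a Benjamini-Hochberg adjusted p under 0.05 by edgeR's quasi-likelihood test, which uses the spread between libraries. Across all 17258 genes tested, 0.852% passed that threshold. At an unadjusted p under 0.05, 5 guidance genes were higher (4.85% of all genes were) and 11 lower (6.26% of all genes). Together these made 23.9% of the guidance genes, where 11.1% of all genes reached that level. DESeq2 called 3 higher (Sema3e, Sema3c and Nrp1) and 2 lower (Sema4b and Sema3f), and none of the other 62. It called 2.53% of all genes tested, so the count of called genes depended on the tool. The 5 genes closest to the threshold all belonged to the semaphorin and neuropilin families. The median log2 fold change, icKO minus control and below also called the log2 difference, was -0.06 over the 67 genes and -0.000755 over all genes tested, and 64.2% of the 67 were below 0 against 50.2% of all genes.

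**Figure D1:**
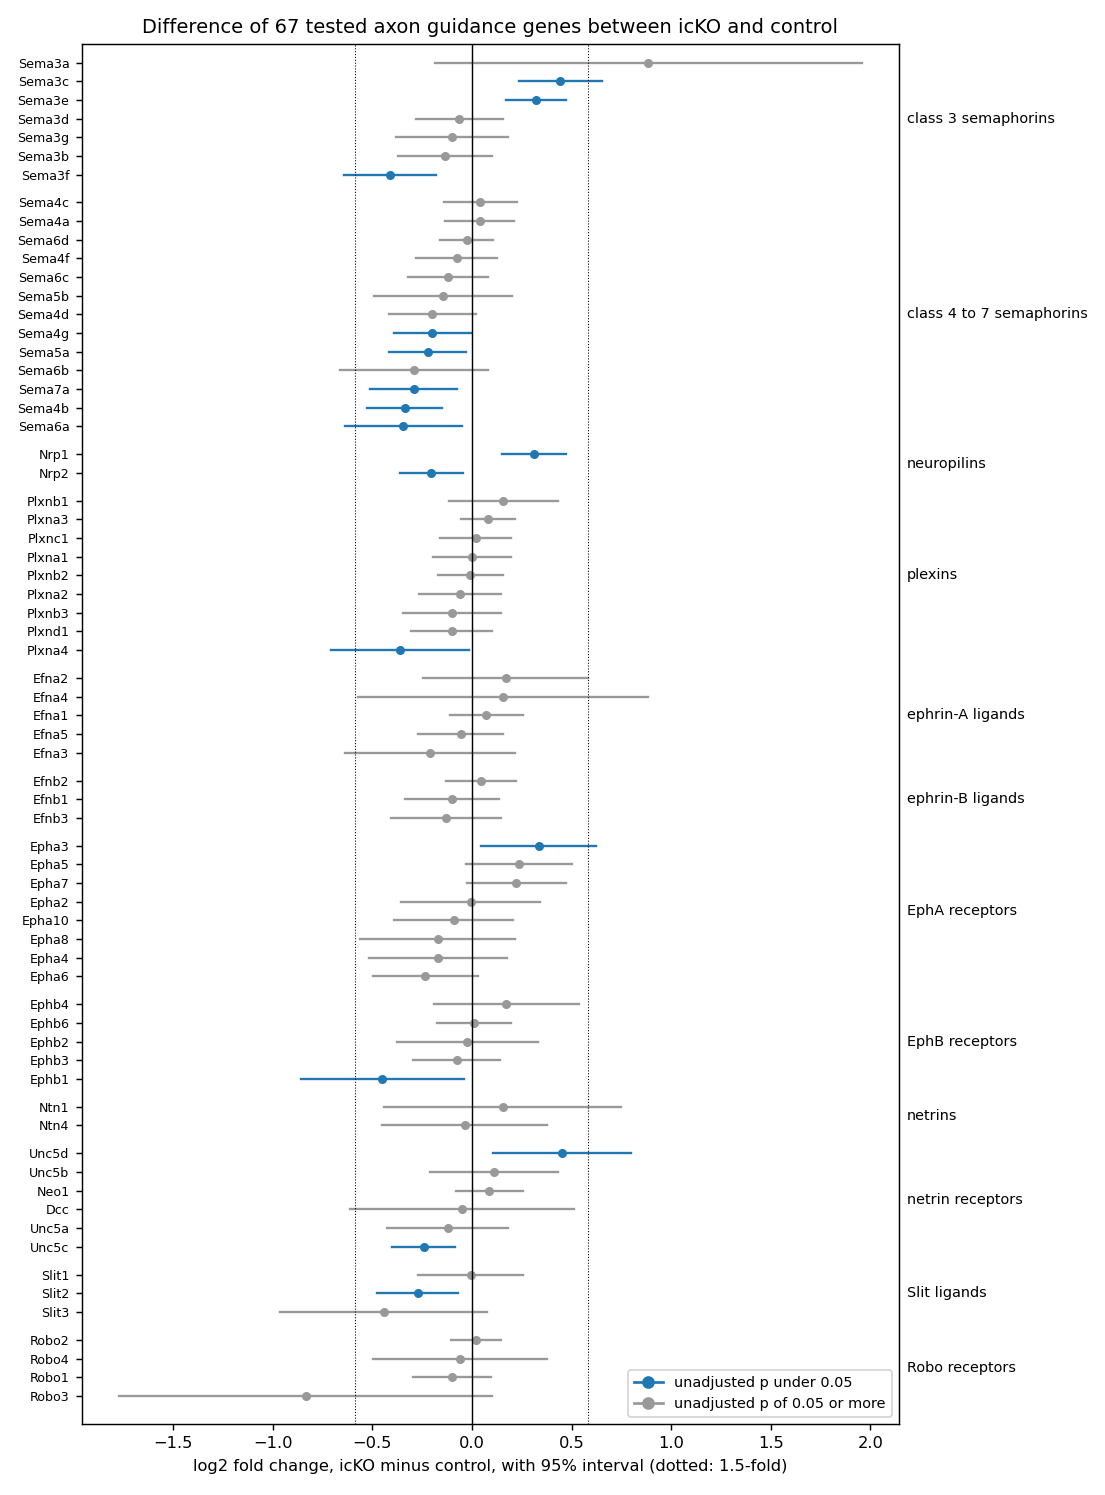
Log2 fold change (icKO minus control) of the 67 tested genes on the horizontal axis, by family, with bars for the 95% interval and dotted lines at 1.5-fold. Blue marks an unadjusted p under 0.05 (5 higher, 11 lower), and 52 of the 67 intervals lie between the dotted lines.

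The intervals show how large a difference these libraries could hold. For 52 of the 67 genes the 95% interval of the log2 fold change, not adjusted for the number of genes, lay within a 1.5-fold difference in both directions. Of the 15 genes whose interval reached past 1.5-fold, 11 were under 10 CPM in control, where CPM is the count relative to the TMM-scaled library size. The 41 genes above 10 CPM in control had log2 fold changes of -0.41 to 0.44. The only log2 fold changes larger than 1.5-fold were those of Robo3 and Sema3a, both under 1 CPM. Epha1 was the 1 gene under the count filter, with 2 to 9 counts per library.

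Libraries held 19607740 to 29481589 counts, of which 63765 to 86908 fell on the 68 guidance genes. Prdm12 was 5.56-fold lower, reaching 24.04 ± 1.41 CPM in the 5 icKO libraries and 134 ± 20.0 CPM in the 4 control libraries (SD), and edgeR's adjusted p was 2.51e-08. Among markers of other cell types, 0 of 8 satellite glia genes, 0 of 8 Schwann cell genes, 0 of 10 endothelial and mural genes, 0 of 9 fibroblast and meningeal genes and 0 of 8 macrophage genes passed by edgeR's test. Of these, 1 satellite glia gene was lower and 1 fibroblast gene higher by unadjusted p under 0.05. The summed fibroblast and meningeal markers ranged from 864 to 2145 CPM in icKO and from 676 to 1449 CPM in control. Of the 12 sensory neuron markers, 0 were higher and 2 lower by edgeR's test, Prdm12 itself among them. These 12 markers summed to 9853 to 11546 CPM in icKO and 10158 to 12341 CPM in control, with Tubb3, Uchl1 and Calca the largest parts. Control 4 stood apart with 86.7 CPM over 8 spinal cord genes, against 22.6 to 28.9 CPM in icKO and 22.1 to 24.6 CPM in the other control libraries. The skeletal muscle list summed to 6.51 to 37.3 CPM in icKO and 9.15 to 61.4 CPM in control, highest in control 2. The adipocyte list summed to 8.33 to 25.2 CPM in icKO and 10.04 to 44.4 CPM in control, highest in control 1. Satellite glia genes summed to 4073 to 4807 CPM in icKO and 3821 to 5016 CPM in control. Schwann cell genes summed to 3228 to 3855 CPM in icKO and 3149 to 3790 CPM in control. Control 2 was the highest control library in both, and also in the fibroblast and meningeal sum. Y-linked counts were high in icKO 1, icKO 2, control 1 and control 3 and at 3.58 CPM or less in the others, so both kinds of library occurred in both groups. For Y-linked counts a model term, fits within each kind of library and an interaction term were run. The part of the marker differences in the values below was not tested, other than by leaving libraries out. In RNA from whole ganglia, fewer cells of a type and less RNA per cell cannot be told apart.

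In control ganglia the level per kilobase of exon, which takes account of gene length, ran from 52.0 CPM per kilobase for Plxnc1 to 0.0196 CPM per kilobase for Sema3a. The length is that of the merged exons of all annotated transcripts, so the order depends partly on the annotation. Before division by length, for example, Robo2 (250 CPM) was above Slit1 (156 CPM) in control. Plxnc1 encodes plexin-C1, the receptor of semaphorin 7A, and it stood alone at the top. Next came Slit1 at 26.4 ± 5.22, Sema7a at 24.1 ± 2.79, Plxnd1 at 21.2 ± 2.81 and Sema3b at 19.8 ± 2.76 CPM per kilobase (SD, n = 4), with Sema4f among them at 21.4 CPM per kilobase. Neighbours among these genes had overlapping spreads. Below them came Efna1 at 15.5, Robo2 at 14.7, Sema6d at 13.6, Plxna2 at 12.4 and Plxna4 at 11.9 CPM per kilobase. The abundant genes included known partners, such as Sema7a with its receptor gene Plxnc1 and Slit1 with Robo2. At the other end, Epha1, Robo3 and Dcc were at 0.0491, 0.0894 and 0.163 CPM per kilobase in control. Levels differed widely within the Slit family, where Slit1 was at 26.3 CPM per kilobase in icKO and 26.4 in control, while Slit3 was at 0.391 in icKO and 0.534 in control.

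**Figure D2:**
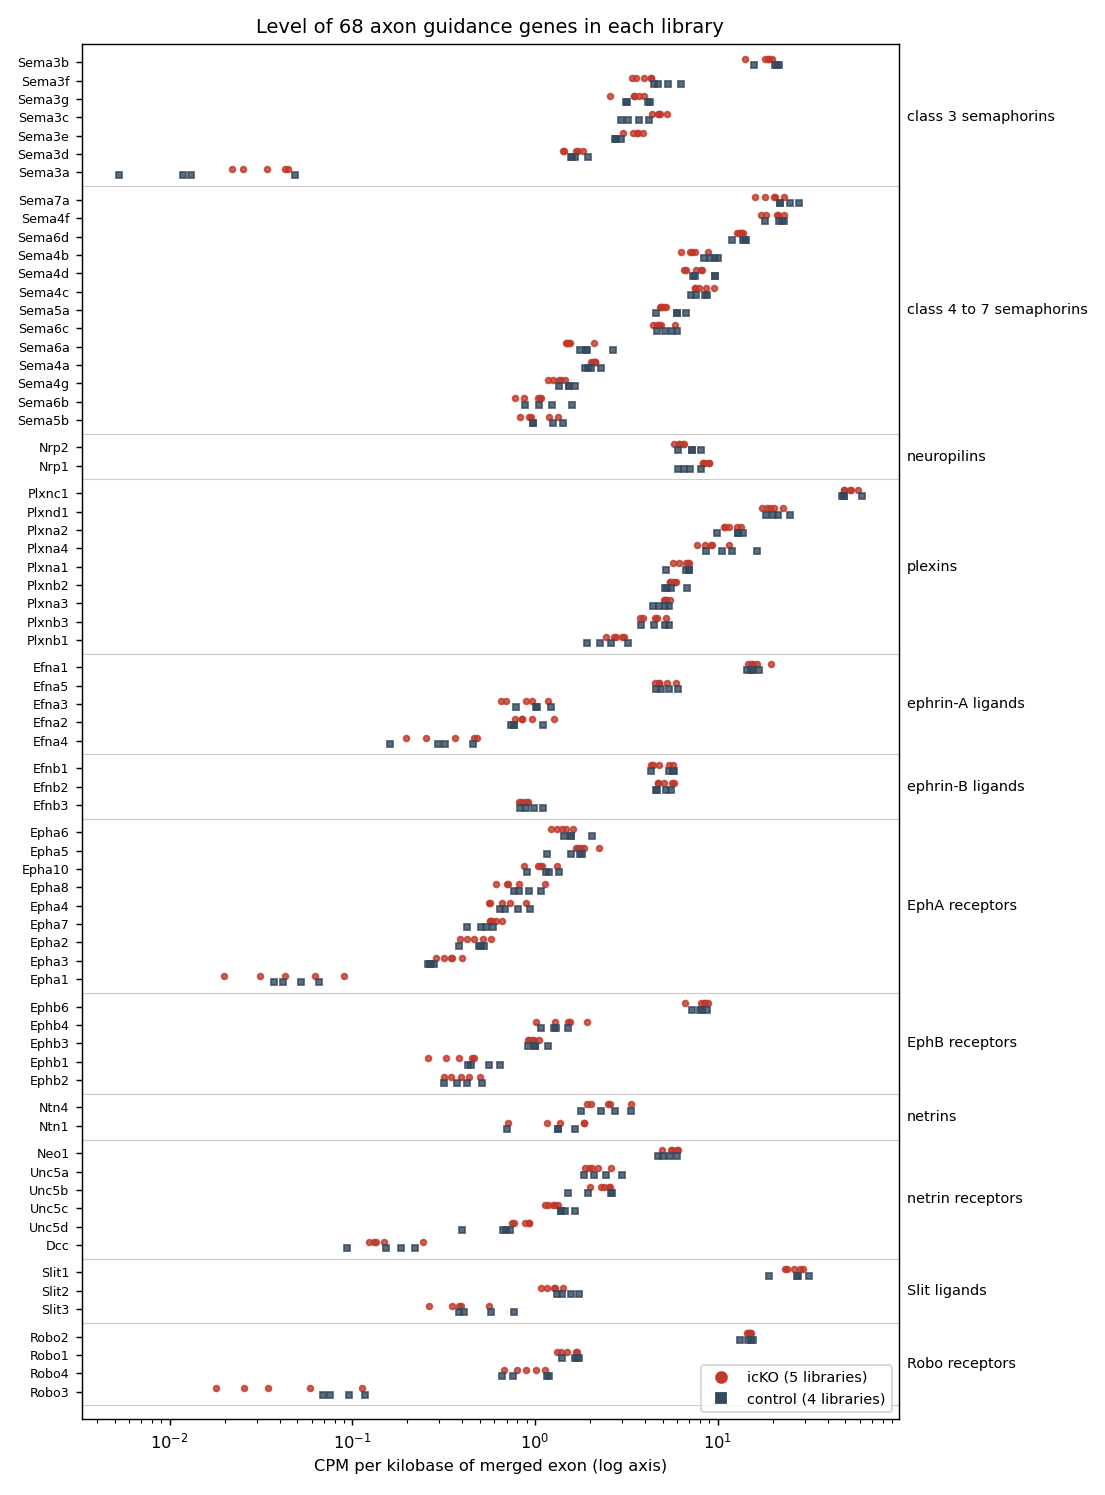
Level of each of the 68 genes in CPM per kilobase of merged exon (log axis), with 1 red circle per icKO library and 1 dark square per control library, ordered by control level within each family. Plxnc1 is highest at 52.7 CPM per kilobase in icKO and 52.0 in control, and Sema3a lowest in control.

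Class 3 semaphorins held the 2 smallest p-values among the 68 genes. Sema3e (ENSMUSG00000063531) encodes a secreted semaphorin known to signal through plexin-D1 without a neuropilin. It had 32.1, 36.02, 33.8, 33.4 and 28.3 CPM in icKO libraries 1 to 5, against 27.3, 25.9, 25.6 and 25.9 CPM in control libraries 1 to 4. Every icKO library lay above every control library, and the control libraries lay close together. The log2 fold change was 0.32 (SE 0.07, 95% interval 0.17 to 0.47), a 1.25-fold difference, and edgeR's adjusted p was 0.0579. Without icKO 5, the lowest icKO library, the adjusted p was 0.0164, and without any other single library it was 0.0893 to 0.146.

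Sema3c (ENSMUSG00000028780) encodes a secreted semaphorin that binds both neuropilins. It had 33.7, 34.7, 33.9, 37.9 and 31.2 CPM in icKO, against 26.6, 23.03, 21.2 and 30.2 CPM in control. The groups did not overlap, although control 4 came within about 1 CPM of the lowest icKO library. The log2 fold change was 0.44 (SE 0.10, 95% interval 0.23 to 0.65), a 1.36-fold difference, with an adjusted p of 0.0586. It was 0.0150 without control 4, the control library nearest to icKO, and 0.0737 to 0.143 without any other single library.

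Sema3f (ENSMUSG00000034684), on the minus strand of chromosome 9 from 107681500 to 107710475, encodes a secreted semaphorin that acts through neuropilin-2. It had 18.5, 22.3, 22.4, 17.8 and 20.6 CPM in icKO, against 24.4, 23.3, 27.8 and 32.9 CPM in control. All icKO libraries lay below all control libraries, by a narrow margin between icKO 3 and control 2. The log2 fold change was -0.41 (SE 0.11, 95% interval -0.64 to -0.18), and edgeR's adjusted p was 0.110.

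The other 4 class 3 genes had unadjusted p-values over 0.05. Sema3b, the most abundant of the class per kilobase, was at 86.2 ± 10.7 CPM in icKO (SD, n = 5) and 94.6 ± 13.2 CPM in control (SD, n = 4), and its log2 difference was -0.14 (SE 0.11). Sema3d differed by -0.06 (SE 0.10) and Sema3g by -0.10 (SE 0.13) on the log2 scale. Sema3a, the classical repellent of sensory axons, had 2 to 17 counts per library and a log2 fold change of 0.88 whose interval ran from -0.19 to 1.96. Sema3d, Sema3a, Sema3e and Sema3c lie in this order on chromosome 5 of mm10, all on the plus strand, between positions 12383385 and 17730268. Sema3e covers 14025276 to 14256689 and Sema3c 17574281 to 17730268, with 3317591 bases between them. Of these 4 genes, Sema3e and Sema3c had groups that did not overlap, while Sema3d averaged 13.9 ± 1.58 CPM in icKO and 14.6 ± 1.52 CPM in control (SD, n = 5 and 4).

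The neuropilin genes had fold changes of opposite sign. Nrp1 (ENSMUSG00000025810) lies on chromosome 8 of mm10 from 128358604 to 128503363 and Nrp2 on chromosome 1 from 62703285 to 62818695, both on the plus strand. Nrp1, the ligand-binding receptor of Sema3a and Sema3c, had 81.5, 88.05, 83.9, 87.96 and 80.9 CPM in icKO, against 79.2, 59.7, 64.4 and 69.2 CPM in control. The icKO libraries lay above all control libraries, with control 1 close beneath them. The log2 fold change was 0.31 (SE 0.07, 95% interval 0.15 to 0.47), a 1.24-fold difference, and edgeR's adjusted p was 0.0800. It was 0.0138 without control 1, the control library nearest to icKO, and 0.113 to 0.220 without any other single library. Nrp2, the receptor partner of Sema3f, had 77.1, 68.3, 73.2, 76.2 and 72.8 CPM in icKO, against 85.9, 71.8, 85.5 and 95.6 CPM in control. Control 2 fell among the icKO libraries and the other 3 control libraries lay above them. The Nrp2 log2 fold change was -0.20 (SE 0.07), with an unadjusted p of 0.0167 and an adjusted p of 0.297. The difference between the 2 neuropilin genes was not tested.

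**Figure D3:**
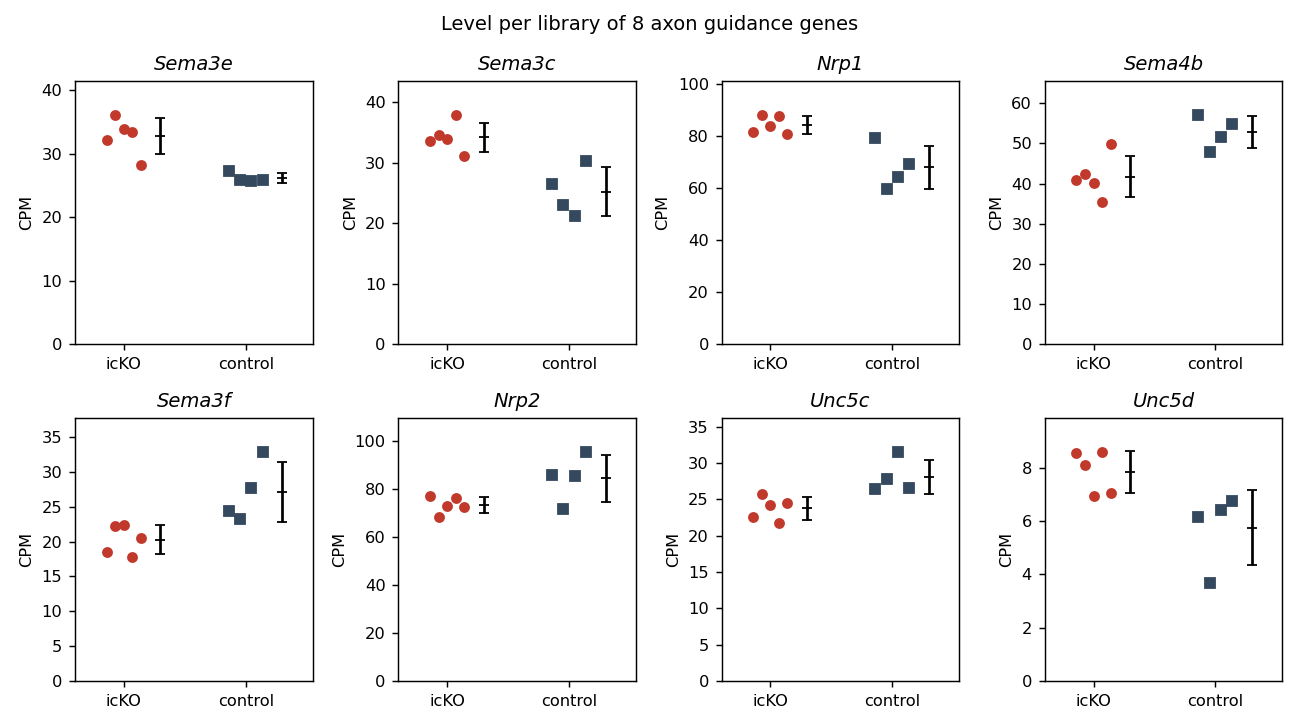
Level in CPM of 8 genes in each library (vertical axis, starting at 0), with icKO as red circles on the left and control as dark squares on the right, and the mean ± SD beside each group. Sema3e, Sema3c, Nrp1 and Unc5d have all icKO libraries above all control libraries, Sema3f and Unc5c all below, and Sema4b and Nrp2 overlap.

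Semaphorins of classes 4 to 7 are mostly membrane-bound. Of 13 genes, 0 passed by edgeR's test and 11 (84.6%) had a negative log2 fold change, against 50.2% of all genes. Some lists of other pathway genes, described further below, had similar shares. By unadjusted p under 0.05, none was higher and 5 (38.5%) were lower, against 6.26% of all genes. The family as a whole was not tested. Their median was -0.20, and it lay between -0.25 (without control 2) and -0.13 (without control 4) over single libraries left out. Sema4b (ENSMUSG00000030539), on the plus strand of chromosome 7 from 80186841 to 80226527, had 40.9, 42.5, 40.1, 35.5 and 49.8 CPM in icKO, against 57.0, 47.8, 51.5 and 54.8 CPM in control. Only icKO 5 reached into the control range. Its log2 fold change was -0.34 (SE 0.09, 95% interval -0.53 to -0.15), with an adjusted p of 0.110. It was 0.0379 without icKO 5 and 0.0844 to 0.259 without any other single library. DESeq2 gave Sema4b an adjusted p of 0.0232.

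Sema7a, the membrane-anchored ligand of plexin-C1, had 60.1, 66.9, 76.4, 52.8 and 67.9 CPM in icKO, against 72.3, 72.3, 91.6 and 81.7 CPM in control. The groups overlapped at icKO 3. Its log2 fold change was -0.29 (SE 0.10) and its adjusted p 0.266. Sema6a averaged 14.3 ± 2.27 CPM in icKO and 18.1 ± 3.64 CPM in control (SD, n = 5 and 4). The log2 difference was -0.34 (SE 0.14), and edgeR's adjusted p was 0.354. Without control 1 the Sema6a values were -0.19 and 0.713. Sema5a and Sema4g, named here after their values were seen, were the others with an unadjusted p under 0.05. Sema5a had 90.4, 97.7, 92.7, 91.6 and 95.3 CPM in icKO, against 126, 85.7, 112 and 112 CPM in control. Control 2 lay below every icKO library, and without it the log2 fold change of Sema5a went to -0.32 with an adjusted p of 0.0250, compared with -0.22 and 0.362 over all libraries. Without control 1, the highest library, they were -0.15 and 0.672. Sema4f and Sema6d, abundant members of the class, differed by -0.08 (SE 0.09) and -0.03 (SE 0.06) on the log2 scale.

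The plexin genes, which encode the signalling receptors of semaphorins, did not pass in any of 9 cases by edgeR's test, and Plxna4 alone had an unadjusted p under 0.05. Their median log2 fold change was -0.01. Plxnc1 had 447, 409, 441, 413 and 489 CPM in icKO, against 412, 399.8, 412 and 514 CPM in control. The groups covered nearly the same range, and the log2 fold change was 0.02 (SE 0.08, 95% interval -0.16 to 0.20). Plxnd1, the receptor of Sema3e, averaged 144 ± 14.7 CPM in icKO and 155 ± 20.5 CPM in control (SD, n = 5 and 4), a log2 fold change of -0.10 (SE 0.09). Plxna4, a co-receptor of Sema3a with neuropilin-1, had 119.8, 163, 130.3, 108 and 132 CPM in icKO, against 232, 122, 149.8 and 168 CPM in control. Control 1 alone lay far above the rest. The Plxna4 log2 difference came to -0.36 (SE 0.16) and its adjusted p to 0.426, and without control 1 they were -0.17 and 0.798. Plxna3 at 0.08 (SE 0.06) and Plxnb1 at 0.16 (SE 0.13) on the log2 scale had the next smallest p-values.

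Of 8 ephrin genes, 0 passed by edgeR's test, 0 had an unadjusted p under 0.05, 4 were positive and 4 negative. Efna1, the most abundant ephrin per kilobase and attached to the membrane by a lipid anchor, had 29.9, 28.7, 26.8, 28.04 and 35.9 CPM in icKO, against 30.8, 28.6, 26.4 and 27.8 CPM in control. The libraries of both groups were intermingled, with icKO 5 highest, and the log2 fold change was 0.07 (SE 0.08). At about 2 CPM, Efna2 differed by 0.17 (SE 0.19) and Efna3 by -0.21 (SE 0.20) on the log2 scale. The transmembrane ephrins Efnb1, Efnb2 and Efnb3 had log2 differences of -0.10 (SE 0.11), 0.05 (SE 0.08) and -0.13 (SE 0.13).

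Of 13 tested Eph receptor genes, 0 passed by edgeR's test. By unadjusted p under 0.05, 1 was higher and 1 was lower. Epha3 had 2.49, 2.75, 3.03, 3.45 and 3.04 CPM in icKO, against 2.35, 2.33, 2.26 and 2.42 CPM in control. All icKO libraries lay above all control libraries, icKO 1 by the least. The log2 fold change was 0.34 (SE 0.13, 95% interval 0.05 to 0.62), with an adjusted p of 0.356, on 47 to 87 counts per library. Ephb1 averaged 2.64 ± 0.605 CPM in icKO and 3.63 ± 0.692 CPM in control (SD, n = 5 and 4). The log2 difference was -0.45 (SE 0.19), and edgeR's adjusted p was 0.386. Epha7, with a log2 difference of 0.22 (SE 0.11), and Epha6, with one of -0.23 (SE 0.12), had overlapping groups. Ephb6, an Eph receptor without kinase activity and the most abundant Eph gene per kilobase, averaged 30.6 ± 3.27 CPM in icKO and 30.4 ± 2.40 CPM in control (SD, n = 5 and 4), and its log2 difference was 0.01 (SE 0.09). Ephb4, known from veins, differed by 0.17 (SE 0.17) and Ephb3 by -0.08 (SE 0.10) on the log2 scale.

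Netrins and their receptors gave 0 calls by edgeR's test among 8 genes. By unadjusted p under 0.05, the receptor gene Unc5d was higher and Unc5c lower. Unc5c encodes a receptor through which netrin repels axons. It had 22.6, 25.7, 24.2, 21.8 and 24.6 CPM in icKO, against 26.4, 27.8, 31.5 and 26.5 CPM in control. All icKO libraries lay below all control libraries, icKO 2 by less than 1 CPM. The log2 fold change was -0.24 (SE 0.07, 95% interval -0.40 to -0.08), with an adjusted p of 0.185.

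Unc5d, a relative that also binds Flrt proteins, had 8.55, 8.10, 6.93, 8.59 and 7.07 CPM in icKO, against 6.16, 3.67, 6.41 and 6.75 CPM in control. The icKO libraries lay above all control libraries, with control 2 far below the other 3. The Unc5d log2 fold change was 0.45 (SE 0.16, 95% interval 0.10 to 0.80), and edgeR's adjusted p was 0.283. Without control 2 the log2 fold change of Unc5d was 0.29, with an adjusted p of 0.264. Neo1, neogenin, the most abundant netrin receptor gene per kilobase, averaged 49.1 ± 3.79 CPM in icKO and 46.3 ± 4.84 CPM in control (SD, n = 5 and 4), and its log2 difference was 0.09 (SE 0.08). Dcc averaged 2.07 ± 0.650 CPM in icKO and 2.14 ± 0.707 CPM in control. The ligand Ntn1 had 8.65, 4.49, 11.6, 11.6 and 7.34 CPM in icKO, against 4.44, 8.41, 8.38 and 10.4 CPM in control. Ntn1 libraries were as spread within each group as between groups, and the 95% interval of its log2 fold change ran from -0.44 to 0.75. The libraries with the lowest Ntn1 of their groups, icKO 2 and control 1, had the lowest fibroblast and meningeal sums (864 and 676 CPM). Macrophage sums were lowest in the same libraries (108 and 83.5 CPM). Among controls the fibroblast sum was highest in control 2 (1449 CPM), while Ntn1 was highest in control 4. The part of any cell type in Ntn1 was not tested.

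In the Slit and Robo families 0 of 7 genes passed by edgeR's test, and 1 ligand was lower at an unadjusted p under 0.05. Slit1 had 141, 156, 168, 139 and 174 CPM in icKO, against 162, 113, 163 and 187 CPM in control. The icKO libraries all lay within the control range, and the log2 fold change was -0.01 (SE 0.12, 95% interval -0.27 to 0.26). Slit2 had 32.5, 32.7, 36.4, 27.6 and 29.7 CPM in icKO, against 33.5, 35.8, 44.4 and 39.9 CPM in control. Only icKO 3 reached above the lowest control libraries, and the log2 fold change was -0.27 (SE 0.09, adjusted p = 0.263). Slit3, the least abundant Slit, had a log2 difference of -0.44 (SE 0.24) on 39 to 127 counts per library.

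Robo2, the most abundant Robo receptor gene, had 256, 251, 246, 253 and 259 CPM in icKO, against 257, 224, 250.2 and 266 CPM in control. All icKO libraries lay inside the control range. Its log2 fold change of 0.02 (SE 0.06) had a 95% interval of -0.11 to 0.14. Robo1, the other main Slit receptor, averaged 25.04 ± 2.79 CPM in icKO and 26.9 ± 2.45 CPM in control (SD, n = 5 and 4). Robo3, which steers crossing axons in the developing spinal cord and hindbrain, had 3 to 22 counts per library and a log2 fold change of -0.83 with an interval of -1.77 to 0.10.

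Groups did not overlap for 7 of the 67 tested genes, namely Sema3e, Sema3c, Nrp1, Unc5d and Epha3 with icKO above and Sema3f and Unc5c with icKO below. That was 10.4% of them, where 4.50% of all tested genes had groups that did not overlap, 2.16% with icKO above and 2.34% with icKO below. The 33 ligand genes had a median log2 fold change of -0.10 and the 34 tested receptor genes one of -0.04. By summed level the 33 ligands reached 1044 to 1194 CPM in icKO and 1076 to 1284 CPM in control, and the 35 receptors 1676 to 1855 CPM in icKO and 1570.0 to 2001 CPM in control. Both sums overlapped between the groups, and the control libraries spread wider than the icKO libraries.

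**Figure D4:**
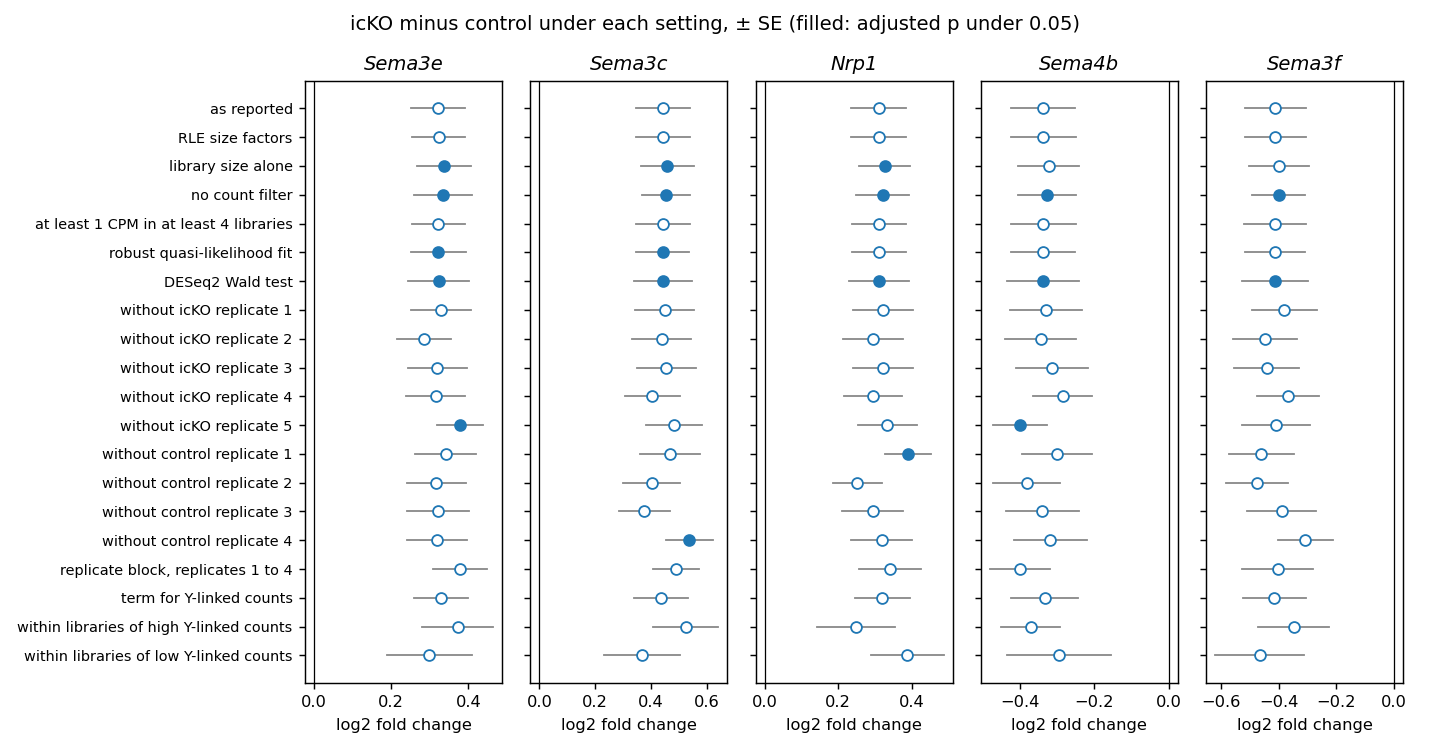
Log2 fold change (icKO minus control, horizontal axis) ± SE of the 5 genes with the smallest p under each setting, with filled circles for an adjusted p under 0.05. Sema3e, Sema3c and Nrp1 are above 0 and Sema4b and Sema3f below 0 in every setting shown, and the filled circles change with the setting.

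The 5 genes nearest the threshold kept their sign under all 19 alternatives, but their call depended on the setting, as the plot of fold change by setting shows. Scaling by library size alone gave adjusted p-values of 0.0423 for Sema3e, 0.0441 for Sema3c and 0.0495 for Nrp1 by edgeR's test. The robust fit gave 0.0473 for Sema3e and 0.0426 for Sema3c. Without a count filter all 5 passed, with adjusted p-values of 0.00245 (Sema3c) to 0.0248 (Sema4b). DESeq2 gave 0.00366 for Sema3e, 0.00190 for Sema3c, 0.00875 for Nrp1 and 0.0173 for Sema3f. Within libraries of high Y-linked counts (2 against 2) the log2 fold changes were 0.37 for Sema3e, 0.53 for Sema3c and 0.25 for Nrp1. Within libraries of low Y-linked counts (3 against 2) they were 0.30, 0.37 and 0.39.

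Other genes of the guidance pathways were taken from 4 lists of 87 genes that hold further ligands, co-receptors and intracellular partners. Of 86 tested, 0 were higher and 2 lower by edgeR's test. By unadjusted p under 0.05 the counts were 5 higher and 8 lower, together 15.1% against 11.1% of all genes. The median log2 fold change of the 86 was -0.06, and Timd2 had too few counts. The 25 netrin and Slit signalling partners had a median of -0.08. Among 24 tested semaphorin signalling partners 0 were higher and 1, Cntn2, was lower, with a median of -0.02. None passed among 19 Eph and ephrin partners (median -0.03) or among 18 other netrin and repulsive ligands and partners (median -0.10). The log2 fold change was negative for 73.3% of the 86 genes. That share was 88% for the netrin and Slit partners and 83.3% for the other netrin and repulsive list. The 84.6% of class 4 to 7 semaphorins was thus not particular to them.

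Cntn2 encodes TAG-1, an adhesion protein of axons. It had 217, 249, 249, 208 and 243 CPM in icKO, against 314, 265, 301 and 333 CPM in control. All icKO libraries lay below all control libraries. Cntn2 fell by 0.38 on the log2 scale (SE 0.08), with an adjusted p of 0.0464. That call was lost with RLE size factors (adjusted p = 0.0501), with a term for Y-linked counts (0.0542) and without any single library other than control 2 (0.0579 without icKO 2 to 0.141 without icKO 1).

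The remaining named pathway genes did not pass by edgeR's test. Rtn4rl1, a Nogo receptor homologue, had 129, 139, 140.2, 118 and 141 CPM in icKO, against 98.8, 97.7, 117 and 109.7 CPM in control. The groups did not overlap, narrowly so between icKO 4 and control 3. Its log2 fold change was 0.33 (SE 0.07, adjusted p = 0.0624). On the log2 scale, the heparan sulphate carrier gene Sdc1 differed by 0.48 (SE 0.14, adjusted p = 0.165), the Robo-associated GTPase regulator gene Srgap1 by -0.24 (SE 0.08, adjusted p = 0.211) and Flrt3, whose product binds Unc5 and Robo receptors, by 0.36 (SE 0.12, adjusted p = 0.255). Among plexin-linked GTPase genes the log2 difference was -0.59 (SE 0.23) for Rnd1 and 0.13 (SE 0.05) for Rras. Among partners of Eph and ephrin signalling it was 0.15 (SE 0.06) for Rasa1, -0.21 (SE 0.08) for Sipa1l1 and -0.13 (SE 0.08) for Kalrn. Dscaml1, an adhesion gene, had a log2 difference of -0.48 (SE 0.23) at about 1 to 3 CPM.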

How the data were processed

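The authors deposited 1 table of raw counts per Ensembl gene for each library. The tools named in the submitters' processing notes are featureCounts 1.5.0-p1, STAR 2.5.2a and bcl2fastq 2.20.0.422, and the build is mm10. The sources used here do not give the annotation release, the handling of multi-mapped reads or the use of strand. Sema4c, Efna3, Efna4, Epha1 and Plxna1 share 6.01% to 14.1% of their exon length with a gene on the opposite strand in GENCODE M21. Reads there could not be told apart if the counting did not use strand. All 55536 identifiers were found in GENCODE M21 on the same build, which gave symbols, positions and merged exon lengths.

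Genes were kept with filterByExpr by group in edgeR 4.0.16 (minimum count 10, minimum total 15), which left 17258 genes and at least 99.85% of the counts of each library. TMM factors scaled the libraries, which were compared by edgeR's quasi-likelihood test (R 4.3.3) with Benjamini-Hochberg adjustment over all genes tested and a threshold of 0.05. The biological coefficient of variation was 0.115. Standard errors (SE) were taken as |log2 fold change| over the root of the F statistic, and 95% intervals use the test's degrees of freedom. CPM per kilobase divides by the merged exons of all annotated transcripts. The test was checked on simulated counts with known changes of 1.5-fold or more, so its power for smaller differences was not measured. Pairs of libraries of a group differed beyond sampling noise (chi-square per degree of freedom 5.53 to 20.99), so each counted once. The spread between libraries was thus wider than counting error over all genes, and depth limits mainly genes of few counts, where 3 counts equalled 0.101 to 0.155 CPM.

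The genes and lists were chosen with earlier results of these data known. Named genes were any past the threshold, and in each family the 3 with the smallest p and the most abundant per kilobase, and in each pathway list the 3 with the smallest p. Some results for single genes are not reported here. The counts gave no sign that replicate numbers pair the libraries, and the sources used here do not say whether they do. DESeq2 1.42.0 and the other alternatives are given in the closing section.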

Additional observations from a re-analysis of the deposited data

Results flagged for a closer look

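Among 50 named genes in 2 groups each, 7 values lay far from the rest of their group by Dixon's criterion at the 95% level, which chance gives in about 1 in 20 groups. In icKO, Sema3b was at 67.5 CPM in icKO 4 (others 87.4 to 94.3), Sema6a at 18.4 CPM in icKO 2 (others 13.1 to 13.7), Dscaml1 at 2.05 CPM in icKO 3 (others 1.23 to 1.28) and Kalrn at 64.6 CPM in icKO 5 (others 59.3 to 59.7). In control, 3 genes were highest in control 4, the library with the highest sum over the spinal cord list, to which only part of that list contributed. These were Plxnc1 at 514 CPM (others 399.8 to 412), Efna2 at 2.37 CPM (others 1.58 to 1.64) and Dscaml1 at 2.99 CPM (others 1.67 to 1.71). The interaction term of edgeR tested whether the icKO difference itself differed between libraries of high and of low Y-linked counts. It called 0 of the 67 genes and 0 of all 17258 genes, with 1 guidance gene (Robo3) at an unadjusted p under 0.05. With 2 or 3 libraries of each kind in a group, this cannot show that the difference was alike in both kinds.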

How the results depend on the processing

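The count of guidance genes past the threshold (0 higher, 0 lower) became 3 higher with library size alone, 3 higher and 2 lower without a count filter or with DESeq2, and 2 higher with the robust fit. It stayed at 0 with RLE size factors, with at least 1 CPM in at least 4 libraries and with a term for Y-linked counts. The count was also 0 within either Y-linked split, where few genes passed at all. Of all genes, 0 were higher and 3 lower of 17419 within high counts, and 11 higher and 9 lower of 17410 within low counts. With 2 against 2 and 3 against 2 libraries, a count of 0 guidance or pathway genes there allows no conclusion. Over single libraries left out, 0 to 1 were higher and 0 to 1 lower: Sema3e and Sema4b without icKO 5, Nrp1 without control 1, Sema5a without control 2 and Sema3c without control 4. Pathway genes (0 higher, 2 lower) gave 1 higher with library size alone or the robust fit, 2 higher without a filter or with DESeq2, 1 lower with RLE factors or the Y-linked term, and 0 lower within either split; single libraries left out gave 0 to 1 higher and 0 to 2 lower. Over all genes, DESeq2 called 198 higher and 238 lower against 82 and 65 by edgeR, the filter-free fit 172 and 221. Same-numbered libraries had correlations of deviations of -0.17 to 0.16, and best matches had other numbers for 3 of 4. These values gave no sign of pairing by replicate number, but cannot exclude it. With a replicate block on replicates 1 to 4, 0 guidance genes and 0 pathway genes passed, with 28 higher and 20 lower over all genes. The guidance median stayed between -0.10 and -0.02, and Prdm12 kept its call under all 19 alternatives. Of 930 values of named genes under alternatives, 28 changed sign, all uncalled and from 9 genes. Slit1 was at 0.00933 with library size alone, at 0.00603 without a filter and at 0.0972 within low Y-linked counts, Ephb6 at -0.00016 with the block and -0.00546 within low counts, Plxnc1 at -0.00779 with the block and -0.0286 within low counts, Robo1 at 0.0114 within low counts, and Ephb4 at -0.0466, Efnb2 at -0.00817 and Ntn4 at 0.0150 within high counts. Over single libraries left out the ranges were -0.131 to 0.0919 for Slit1, -0.0369 to 0.0741 for Ephb6, -0.181 to 0.127 for Ntn4, -0.0186 to 0.110 for Plxnc1, -0.0493 to 0.320 for Ntn1 and -0.0276 to 0.0533 for Robo2.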
